A study of Mus musculus with 4 samples.

Results

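The cells described here are the plaque cells with the highest combined expression of *Timp1*, *Thbs1*, *Ltbp2*, *Prg4*, *Col8a1*, *Ly6a*, *Fbln2* and *Slurp1*. For each of the 2431 cells of the plaque libraries a score was formed as the mean of log2(value + 1) over these 8 genes, where the value is the number of unique molecular identifiers (UMIs) of the gene per 10000 UMIs of the cell. The 260 cells with the highest score were selected, and they are 10.7% of the plaque cells and part of a series of 12790 cells. They were chosen by measured values of the genes named, so the levels of these genes are a description of the choice and not a finding. The label given to these cells was fibromyocyte-like, and it was checked against marker lists as described below.

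The study sequenced the RNA of single cells from atherosclerotic plaques and from ligated carotid arteries, with 1 library per genotype in each experiment. Ligated arteries were taken 28 days after ligation, from wild type control mice and from Sm22a-Trf2T188A mice. For the plaque libraries, lesions of the aortic root and arch and of the carotids were dissected, and enzymes were used to free the cells. Control plaque mice were Myh11-CreERt2/Confetti/ApoE-/- (here *ApoE-/-*), and the other plaque mice carried Sm22a-Trf2T188A in addition (here *Trf2T188A/ApoE-/-*), both on the C57Bl6/J background. Both genotypes received tamoxifen at the age of 6 weeks and a high fat diet for 14 weeks, from the age of 8 weeks to that of 22 weeks. Loss of apolipoprotein E, which both genotypes share, leads to atherosclerosis on this diet. Tamoxifen switches on 1 of several fluorescent Confetti proteins in cells that express *Myh11*, so that smooth muscle cells and their progeny keep the colour. The mutant TRF2, a form of a telomere-binding protein, is driven by a minimal *Sm22a* promoter. The Myh11-CreERt2 transgene is carried by males only, and the number of mice behind each library was not given.

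Vascular smooth muscle cells of the healthy artery wall are contractile and carry large amounts of smooth muscle myosin, actin and their regulators. In plaques many of them lose these proteins and make extracellular matrix instead, a change known as phenotypic modulation. Fibromyocytes are modulated smooth muscle cells that resemble fibroblasts in their matrix genes and are found in the lesion and its fibrous cap.

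The *ApoE-/-* library held 37869934 UMIs in 1502 cells and the *Trf2T188A/ApoE-/-* library 24064570 UMIs in 929 cells, and no cell barcode was shared between them. Transcripts of the TRF2 transgene were found in 0 of 138 selected and 0 of 1364 other *ApoE-/-* cells. In the *Trf2T188A/ApoE-/-* library they were found in 4 of 122 selected cells (3.28%, exact Clopper-Pearson 95% interval 0.9 to 8.18%) and in 5 of 807 other cells (0.62%). With each cell of that library thinned to 8000 UMIs, they were found in 2 of 111 selected cells (1.8%, 0.22 to 6.36%) and 2 of 696 other cells (0.29%). A UMI of a Confetti reporter was present in 80.4% of the selected *ApoE-/-* cells (72.8 to 86.7%) and in 74.6% of the selected *Trf2T188A/ApoE-/-* cells (65.9 to 82%). In other plaque cells these shares were 83.9% and 87%. After each cell had been thinned to 8000 UMIs the shares were 52.9% and 63.1% in selected cells and 69.2% and 75.9% in other cells. The reporter was thus detected in a lower share of the selected cells of each library, although the intervals of the *ApoE-/-* cells overlap before thinning. In the 260 cells with the highest contractile score the share was 95%, and 80.6% after thinning.

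At the median more UMIs were counted in selected cells than in other plaque cells. Per cell, the median was 38319 UMIs and 6191 genes for *ApoE-/-* and 32427 UMIs and 5792.5 genes for *Trf2T188A/ApoE-/-*, against 21853.5 and 23788 UMIs in the other cells. It was 31447 UMIs in the 260 cells with the highest cartilage score, and 29579.5 in the 260 with the highest complement and acute-phase score. Over all plaque cells the score had a Spearman correlation of 0.33 with the number of UMIs, and over the 260 selected cells a correlation of 0.13. These cells share 2 libraries, and the correlations are descriptions. No cell was removed as a doublet. Of the 121 cells with the highest Scrublet doublet scores, 5% of each library, 7 were selected cells, which is 2.69% of the 260 (1.09 to 5.47%).

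The score ran on without a gap. The last selected cell had a score of 1.570 and the first cell left out one of 1.569, and 35 selected cells and 31 other cells lay within 0.1 of that limit. The selected cells are described here as a range of the score, and whether they form a type of their own was not tested. The highest score was 4.53, the median was 1.98 in selected cells and 0.2 in other cells, and 440 plaque cells scored 0. Of the 8 score genes a selected cell held transcripts of 6 at the median and another plaque cell of 2. All 8 were detected in 19 selected cells, 7 in 77, and at most 4 in 21. At least 6 were also detected in 85 cells that were not selected.

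**Figure D1:**
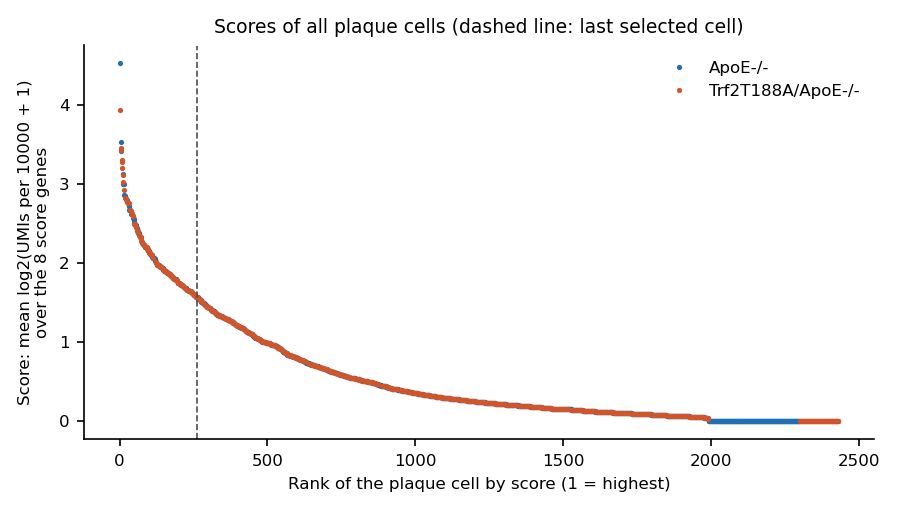
Scores of the 2431 plaque cells of both libraries, sorted from the highest, with the mean of log2(UMIs per 10000 + 1) over the 8 score genes on the vertical axis. Each point is a cell, the dashed line marks the last of the 260 selected cells, and the score passes it at 1.570 without a gap.

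The score genes code for secreted or surface proteins of different roles. *Timp1* (chromosome X of GRCm38, 20870166 to 20874735), an inhibitor of matrix metalloproteinases, had a mean of 28.6 UMIs per 10000 in selected *ApoE-/-* cells and 21.9 in selected *Trf2T188A/ApoE-/-* cells, against 1.58 and 1.73 in other cells. *Thbs1* (chromosome 2, 118111876 to 118127133), which codes for the matricellular protein thrombospondin 1, had means of 10.7 and 9.84 in selected cells and 0.748 and 0.925 in other cells. *Ltbp2* (chromosome 12, 84783212 to 84876532), a fibrillin-binding matrix protein related to the latent TGF-β binding proteins, had means of 9.36 and 10.5 against 0.918 and 1.45. For these 3 genes both libraries were high in selected cells and low elsewhere, as the choice requires. *Prg4* (chromosome 1, 150449412 to 150466165), the gene of the lubricating proteoglycan lubricin, had means of 11.6 and 23.6 in selected cells against 0.906 and 2.14 in other cells. *Col8a1* (chromosome 16, 57624258 to 57754737), a chain of the short-chain collagen VIII, had means of 4.85 and 5.18, and *Fbln2* (chromosome 6, 91212455 to 91272540), an elastic-fibre associated glycoprotein, had 3.66 and 2.92. *Ly6a* (chromosome 15, 74994877 to 74998031), which codes for the surface protein Sca1, had means of 5.07 and 3.68. *Slurp1* (chromosome 15, 74724318 to 74728034), a secreted protein of the Ly6 family, had means of 2.67 and 1.4.

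The score genes were not spread evenly over the selected cells. *Timp1* was the gene with the highest value in 90 of them, *Prg4* in 62, *Thbs1* in 41 and *Ltbp2* in 30. *Timp1* was detected in 98.6% of the selected *ApoE-/-* cells and 98.4% of the selected *Trf2T188A/ApoE-/-* cells, and *Ltbp2* in 97.8% and 99.2%. *Slurp1* was detected in only 29% and 23.8%, and its median over selected cells was 0. Over all plaque cells the 28 pairs of score genes had positive Spearman correlations, with a median of 0.35. Within the 260 selected cells 15 of the 28 pairs were positive, with a median of 0.01 and a range from −0.42 to 0.47. The highest was that of *Thbs1* with *Col8a1* (0.47), and the lowest that of *Prg4* with *Col8a1* (−0.42). *Timp1* had a correlation of −0.35 with *Col8a1* and of 0.24 with *Prg4*, and *Thbs1* one of −0.37 with *Prg4*. These points share libraries and the selection itself, which favours cells high in any of the genes, and the correlations are descriptions.

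Selected cells were low in contractile genes and high in genes of the fibromyocyte list in both libraries. A gene was compared when 10% or more of the selected cells, or of the other plaque cells, held its transcripts, and ratios were taken between means to which 1 UMI per 10000 had been added. Of 11463 such genes 63 (0.55%) were at least 2-fold higher in selected cells and 100 (0.872%) at least 2-fold lower. The higher genes include the 8 score genes, which are high by the choice. Of the higher genes 48 passed the same ratio in each library alone, as did 94 of the lower genes. The median of all genes compared was −0.01. These ratios come from the cells that were used for the choice, the study's own cluster markers from these libraries include the score genes, and nothing beyond the description is read from the counts. Intervals given with the ratios are 95% intervals from UMI counts by the delta method. They cover counting error only and not variation between animals, of which 1 library per genotype gives no measure.

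Of the 15 contractile genes 13 were at least 2-fold lower in selected cells, and the median log2 ratio of the list was −2.01 (−2.0 among *ApoE-/-* cells, −1.98 among *Trf2T188A/ApoE-/-* cells). *Myh11* (chromosome 16, 14194535 to 14291372), smooth muscle myosin heavy chain, had means of 1.97 and 1.68 UMIs per 10000 in selected *ApoE-/-* and *Trf2T188A/ApoE-/-* cells and of 31.2 and 26.3 in other cells, or −3.42 (−3.47 to −3.37) as a log2 ratio. *Myl9* (chromosome 2, 156775420 to 156781658), the regulatory light chain of that myosin, had means of 2.58 and 2.89 against 30.1 and 27.4, a log2 ratio of −3.01 (−3.06 to −2.97). Both genes were far lower in the selected cells of either library. *Acta2* (chromosome 19, 34241090 to 34255590), smooth muscle α-actin, had means of 21.1 and 17.8 against 122 and 115 (−2.55, −2.57 to −2.53). *Tagln* (chromosome 9, 45929619 to 45936058), the actin-binding protein SM22α, had means of 17.6 and 14.3 against 93.2 and 85.7 (−2.42, −2.45 to −2.4). *Acta2* was detected in 97.8% of the selected *ApoE-/-* cells and 91.8% of the selected *Trf2T188A/ApoE-/-* cells, with a median of 7.83 against 117 in other cells, and the part of free RNA from other cells in these values was not tested. *Cnn1*, which codes for the actin-binding regulator calponin, had a log2 ratio of −2.42 and *Tpm2*, a tropomyosin, one of −2.42. *Mylk*, the kinase of the myosin light chain, had −2.0, and *Lmod1*, an actin nucleator of smooth muscle, −2.01. *Myocd*, the coactivator that drives contractile genes through serum response factor, had means of 0.945 and 0.832 in selected cells and 3.01 and 3.23 in other cells (−1.11, −1.17 to −1.06). The 2 genes of the list short of 2-fold were *Actg2* (−0.99) and *Des* (−0.59).

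The 10 lowest ratios also hold genes outside the contractile list. *Itga8*, an integrin of smooth muscle, had means of 1.93 and 2.18 in selected cells and 16.7 and 15.8 in other cells (−2.51, −2.56 to −2.46). *Sost*, the Wnt inhibitor sclerostin, was detected in 23.9% and 12.3% of selected cells and in 76.4% and 69.8% of other cells, with a log2 ratio of −2.36 (−2.43 to −2.3). *Sparcl1*, a matricellular relative of SPARC, had a log2 ratio of −2.24 (−2.29 to −2.19), and *Ppp1r14a*, the inhibitor of myosin phosphatase known as CPI-17, one of −2.03 (−2.08 to −1.98).

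Of the 10 fibromyocyte genes 9 were detected in enough cells to be compared, and 8 of them were at least 2-fold higher in selected cells. The median log2 ratio of the list was 1.91, that is 2.0 for *ApoE-/-* and 1.77 for *Trf2T188A/ApoE-/-*. *Tnfrsf11b* (chromosome 15, 54250619 to 54278484), which codes for the decoy receptor osteoprotegerin, had means of 9.28 and 9.78 in selected *ApoE-/-* and *Trf2T188A/ApoE-/-* cells against 1.18 and 1.86 in other cells (2.11, 2.07 to 2.16). *Fn1* (chromosome 1, 71585520 to 71653200), fibronectin, had means of 82.4 and 76.9 against 16.3 and 18.5 (2.16, 2.14 to 2.17). *Lum* (chromosome 10, 97565128 to 97572703), the collagen-binding proteoglycan lumican, had means of 54.9 and 77.3 against 8.76 and 15 (2.46, 2.44 to 2.48). For each of these the selected cells of both libraries were above the other cells of both. *Dcn* (chromosome 10, 97479609 to 97518143), the related proteoglycan decorin, had a median of 66.2 UMIs per 10000 in selected cells and 0.791 in other cells. *Fmod*, fibromodulin, a further proteoglycan of this family, had a log2 ratio of 1.16 (1.11 to 1.21) with a median of 0.115 over selected cells and 44.1% and 50.03% of its UMIs in 5 cells of each library, and *Mgp*, the calcification inhibitor matrix Gla protein, had means of 362 and 412 in selected cells against 169 and 178 in other cells. *Sfrp4*, a secreted Wnt inhibitor, was the gene of the list short of 2-fold, with a log2 ratio of 0.52.

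*Tcf21*, a transcription factor tied to the fibromyocyte state, was the gene too rarely detected to be compared. It had a UMI in 10 of 138 selected *ApoE-/-* cells (7.25%, 3.53 to 12.9%) and 5 of 122 selected *Trf2T188A/ApoE-/-* cells (4.1%, 1.34 to 9.31%). The share was 2.81% in other plaque cells. In the 260 cells with the highest contractile score, with a median of 24718 UMIs against 34859.5 in selected cells, it was 1.92% (0.627 to 4.43%). At 8000 UMIs per cell it was 3.64% in selected cells (1.68 to 6.8%) and 0.775% in the contractile cells (0.094 to 2.77%), and thinning left out 2 selected *ApoE-/-* cells and 11 selected *Trf2T188A/ApoE-/-* cells. The difference was not tested.

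Collagens of the interstitial matrix were high in selected cells. Of the 12 genes of this list 9 were at least 2-fold higher, with a median log2 ratio of 1.13. This median was 0.99 from summed UMIs and 0.97 by mean log values, both short of 2-fold. The summed level of the list was 228 and 222 UMIs per 10000 in selected *ApoE-/-* and *Trf2T188A/ApoE-/-* cells against 60.3 and 68.6 in other cells. *Col1a1* (chromosome 11, 94936224 to 94953042), a chain of collagen I, had means of 61.1 and 58.4 against 13.6 and 15 (2.01, 1.99 to 2.03). *Col3a1* (chromosome 1, 45311538 to 45349706), collagen III, had means of 63 and 65.5 against 15.9 and 20.3 (1.81, 1.8 to 1.83). *Col5a2*, a chain of the collagen V that nucleates fibrils, had a log2 ratio of 1.57 (1.53 to 1.6). *Col6a3*, a chain of the beaded filaments of collagen VI, had 1.44 (1.39 to 1.48), and *Col12a1*, a collagen of fibril surfaces, 1.11 (1.05 to 1.16). In this list, which holds *Col1a1* and *Col3a1* of the fibromyocyte list too, no gene was lower in selected cells. The other chain of collagen VIII, *Col8a2*, had means of 0.0592 and 0.0466 and the growth-plate collagen *Col10a1* means of 0.0155 and 0.302, so *Col8a1* was the gene of the short-chain list that passed the detection limit.

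Basement membrane genes did not share this pattern. Of 15 such genes none was 2-fold higher and 1 was 2-fold lower in selected cells, *Col18a1* (−1.06), whose product carries endostatin, and the list median was −0.19. *Col4a1*, a chain of the collagen IV network, had means of 4.94 and 4.42 in selected cells against 5.44 and 5.6 in other cells. *Lama2*, a laminin chain, had 0.573 and 0.696 against 1.57 and 1.24. Elastic fibre genes were divided, with 8 of 12 above 0 and a median of 0.16. *Fbn1*, the microfibril protein fibrillin 1, had a log2 ratio of 0.93 (0.89 to 0.98), and *Lox*, which crosslinks collagen and elastin, 0.66 (0.62 to 0.71). *Mfap4*, a microfibril-associated protein, was 2-fold lower (−1.46, −1.51 to −1.41). *Eln*, elastin itself, had means of 16.2 and 22 in selected cells and 13.9 and 20.3 in other cells, while its median over cells was 3.15 in selected and 10.5 in other cells, so that mean and median differ in direction.

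Relatives of the score genes differed among themselves. Among the 4 latent TGF-β binding proteins *Ltbp2* was 2-fold higher by the choice, *Ltbp3* had a log2 ratio of 0.24, and *Ltbp1* (−0.97, −1.02 to −0.92) and *Ltbp4* (−0.76, −0.82 to −0.71), which bind latent TGF-β, were lower in selected cells. Among the 7 fibulins *Fbln2* passed 2-fold, and *Fbln5*, an elastic fibre protein, had 0.48 (0.45 to 0.52). Among the thrombospondins *Comp* (chromosome 8, 70373558 to 70382066), the cartilage oligomeric matrix protein, had means of 8.22 and 13.8 in selected cells against 1.88 and 3.12 in other cells (1.82, 1.78 to 1.87). Its median over selected cells was 0.176, and 5 cells of each library held 71% and 58.4% of its UMIs in selected cells. *Thbs2* had a log2 ratio of 0.55 (0.49 to 0.6). Of the thrombospondin receptors, *Sdc1*, a heparan sulfate proteoglycan, was 2-fold higher (1.1, 1.05 to 1.16), *Cd47* had 0.68 (0.63 to 0.73), *Lrp1*, an endocytic receptor, 0.72 (0.67 to 0.76), and *Itgb1*, integrin β1, −0.66 (−0.69 to −0.62).

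Of the 20 genes of the Ly6 and uPAR family list 19 were listed in the libraries, *Psca* being the gene not listed, 7 passed the detection limit, and 3 were 2-fold higher in selected cells, *Ly6a* and *Slurp1* by the choice and *Ly6c1* in addition. *Ly6c1* (chromosome 15, 75044018 to 75048830), a surface protein coded next to *Ly6a*, was detected in 61.6% of selected *ApoE-/-* cells (52.9 to 69.7%) and 57.4% of selected *Trf2T188A/ApoE-/-* cells (48.1 to 66.3%). The share was 8.25% in other plaque cells and 2.31% in the contractile cells, and at 8000 UMIs per cell 34% of the selected, 4.57% of the other and 1.55% of the contractile cells had a UMI. *Ly6e* had a log2 ratio of 0.89 (0.83 to 0.94), and *Cd59a*, an inhibitor of the complement attack complex, −0.43 (−0.49 to −0.38). Ly6 genes are similar in sequence, and reads shared between *Ly6a*, *Ly6c1* and *Ly6c2* cannot be told apart in these counts.

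The selected cells with and without *Slurp1* differed in other genes too. The 69 cells with a *Slurp1* UMI had a median of 41985 UMIs and the 191 cells without one a median of 33396. Median *Ly6a* was 5.07 UMIs per 10000 in the former and 0.886 in the latter, and median *Dcn* was 89.2 and 49.98. Median *Thbs1* went the other way, with 0.888 and 3.55, and so did *Lcn2*, with 1.22 and 5.31. *Slurp1* and the depth of the cells helped to choose both sets, and their part in these values was not tested.

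Matricellular proteins act on cells from within the matrix without forming its fibres. Of the 11 genes of this list 4 were 2-fold higher in selected cells, *Spp1*, *Fn1*, *Tnc* and *Sparc*, and 1, *Ccn3*, was 2-fold lower. *Spp1* (chromosome 5, 104435118 to 104441050), osteopontin, had means of 83.5 and 161 UMIs per 10000 in selected *ApoE-/-* and *Trf2T188A/ApoE-/-* cells against 12.2 and 18.7 in other cells, a log2 ratio of 2.95 (2.93 to 2.97) that was 2.01 from summed UMIs. Its median over selected cells was 12.2, and 5 cells of each library held 53.7% and 33% of its UMIs there, so that a few cells set much of the mean. *Tnc*, tenascin C, had means of 3.41 and 3.59 against 0.844 and 1.12 (1.21, 1.15 to 1.26). *Sparc*, a collagen-binding glycoprotein, had a log2 ratio of 1.16 (1.15 to 1.17). *Ccn3* had −1.44 (−1.5 to −1.39), *Ccn2*, connective tissue growth factor, 0.21 (0.19 to 0.23), and *Postn*, periostin, −0.05 (−0.09 to −0.01). The ratio of *Ccn2* was 0.33 among *ApoE-/-* and 0.03 among *Trf2T188A/ApoE-/-* cells. Its median was 16.5 in selected and 18.5 in other cells, against the direction of the means. Small leucine-rich proteoglycans, which bind collagen fibrils, had 3 of 10 genes 2-fold higher, *Lum*, *Dcn* and *Fmod*, and 1 gene 2-fold lower, *Ogn* (−1.51, −1.56 to −1.46), or osteoglycin.

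Inhibitors of matrix proteases and the proteases themselves were both represented. Of the 4 TIMP genes *Timp1*, by the choice, and *Timp3* were 2-fold higher in selected cells, where *Timp3* was short of 2-fold by mean log values (0.45), and *Timp2* had a log2 ratio of 0.89 (0.86 to 0.92). *Timp3* (chromosome 10, 86300372 to 86349506), an inhibitor bound to the matrix, had means of 37.4 and 22.9 in selected *ApoE-/-* and *Trf2T188A/ApoE-/-* cells against 13.5 and 13.9 in other cells. Its log2 ratio was 1.4 for *ApoE-/-* and 0.68 for *Trf2T188A/ApoE-/-*, of which the latter is short of 2-fold. Of 26 proteases and partners, 22 of them detected, 3 were 2-fold higher, *Mmp2*, *Mmp3* and *Mmp14*, of which *Mmp3* (1.26) was short of 2-fold from summed UMIs (0.95) and by mean log values (0.36). *Mmp2* (chromosome 8, 92827291 to 92853420), a gelatinase, was detected in 92.8% and 96.7% of selected cells against 30.4% and 34.4% of other cells (1.41, 1.36 to 1.47). *Mmp14*, the membrane protease that activates MMP2, had means of 3.63 and 3.59 against 0.82 and 0.936 (1.31, 1.25 to 1.36). *Mmp10* and *Mmp12* had no UMI in selected cells. *Adamts1*, a versican-cleaving protease, was lower (−0.72, −0.78 to −0.66).

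Genes of inflammation were examined as 2 lists. Of 14 complement and acute-phase genes 4 were 2-fold higher, *C3*, *Lcn2*, *Hp* and *Serpina3n*, and the list median was 0.37. *Lcn2* (chromosome 2, 32384633 to 32388252), the siderophore-binding lipocalin 2, had means of 10.6 and 14.2 against 1.31 and 3.92 (2.02, 1.98 to 2.05). *C3* (chromosome 17, 57203970 to 57228136), the central complement protein, was detected in 81.9% and 91.8% of selected cells against 36.8% and 51.4% of other cells (1.56, 1.52 to 1.6). *Hp*, the haemoglobin scavenger haptoglobin, had a log2 ratio of 1.59 (1.54 to 1.64), but its median over selected cells was 0 and 5 cells of each library held 79.8% and 72.4% of its UMIs there. Of 13 chemokines and cytokines 11 were detected and 3 were 2-fold higher, the neutrophil chemokines *Cxcl1* (1.28, 1.24 to 1.32) and *Cxcl2* (1.74, 1.69 to 1.78) and the monocyte chemokine *Ccl2* (1.29, 1.25 to 1.34). By mean log values *Cxcl2* was at 0.7, short of 2-fold, and 5 cells of each library held 59.6% and 72.4% of its UMIs in selected cells. These shares were 40.2% and 55.7% for *Cxcl1* and 57.8% and 68.7% for *Ccl2*, whose median was 0. *Ccl2* had a UMI in 33.3% of selected *ApoE-/-* cells (25.5 to 41.9%) and 26.2% of selected *Trf2T188A/ApoE-/-* cells (18.7 to 35%), against 8.15% of other plaque cells and 3.08% of the contractile cells. At 8000 UMIs the shares were 25% and 23.4% against 4.37% and 1.16%.

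Genes used to mark modulated smooth muscle cells were higher as well, with 6 of 15 at least 2-fold higher, 14 of 15 above 0 and a median log2 ratio of 0.89. *Vcam1* (chromosome 3, 116109949 to 116129688), an adhesion receptor for leukocytes, had means of 24.8 and 18.9 in selected cells against 4.49 and 5.71 in other cells (1.95, 1.93 to 1.98). *Cd44*, the hyaluronan receptor, had 3.48 and 2.65 against 0.654 and 0.819 (1.25, 1.2 to 1.3). *Runx1*, a transcription factor, had a log2 ratio of 1.25 (1.19 to 1.32), and *Lgals3*, galectin 3, one of 1.23 (1.18 to 1.28). *Klf4*, a transcription factor of phenotypic modulation, had means of 3.43 and 4.15 against 3.5 and 3.81 and did not stand apart. In the list of hyaluronan and lubricin genes 2 of 12 were 2-fold higher, *Prg4* by the choice and *Cd44*, and *Cemip*, which degrades hyaluronan, had 0.81 (0.74 to 0.88). Among the 20 highest ratios outside the score were also *Fxyd5*, a regulator of the sodium pump (1.56, 1.51 to 1.61), *Ecrg4*, a secreted peptide precursor (2.1, 2.07 to 2.13), and *Grin2a*, a glutamate receptor subunit (1.34, 1.26 to 1.42). By mean log values 16 of these 20 genes passed 2-fold, and *Comp*, *Cxcl2*, *Hp* and *Grin2a* did not. From summed UMIs 19 passed, without *Grin2a*.

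The change along the score was gradual. In bands of 260 cells by falling score, the first of which is the selected cells, mean *Myh11* was 1.84, 5.3, 14 and 23.2 UMIs per 10000 in the first 4 bands and 41.3 in the 440 cells with a score of 0. Mean *Lum* was 65.4, 45.9, 23.5 and 11.2 in the same bands and 1.39 in the cells at 0. Mean *C3* was 8.25, 7.89, 4.66 and 2.2 in the first 4 bands, and mean *Lcn2* 12.3, 10.8, 4.49 and 2.37. Mean *Mmp3* was 2.79, 2.78, 0.486 and 0.555 there. For these 3 genes the second band was close to the selected cells. Median depth was highest at high scores, with 34859.5 UMIs in the first band and 29612.5 in the second, and lowest in the cells at 0 (17844.5). Between them it did not fall throughout, with 21782.5, 23079 and 24551 UMIs in bands 6, 7 and 8. The share of *Trf2T188A/ApoE-/-* cells was higher at high scores too, with 122 of 260 cells in the first band, 127 in the second and 132 of 440 in the last. The parts of depth and genotype in these levels were not tested. *Col2a1*, the collagen of cartilage, did not follow the order, with a mean of 13.6 in the selected cells and of 50.2, 44.8 and 20.4 in the next 3 bands. *Ibsp*, bone sialoprotein, had 7.01 in the selected cells and 24, 24.1 and 29 in the next bands. For both genes the selected cells were below these 3 bands, while the cells with a score of 0 had 0.294 and 0.119.

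**Figure D2:**
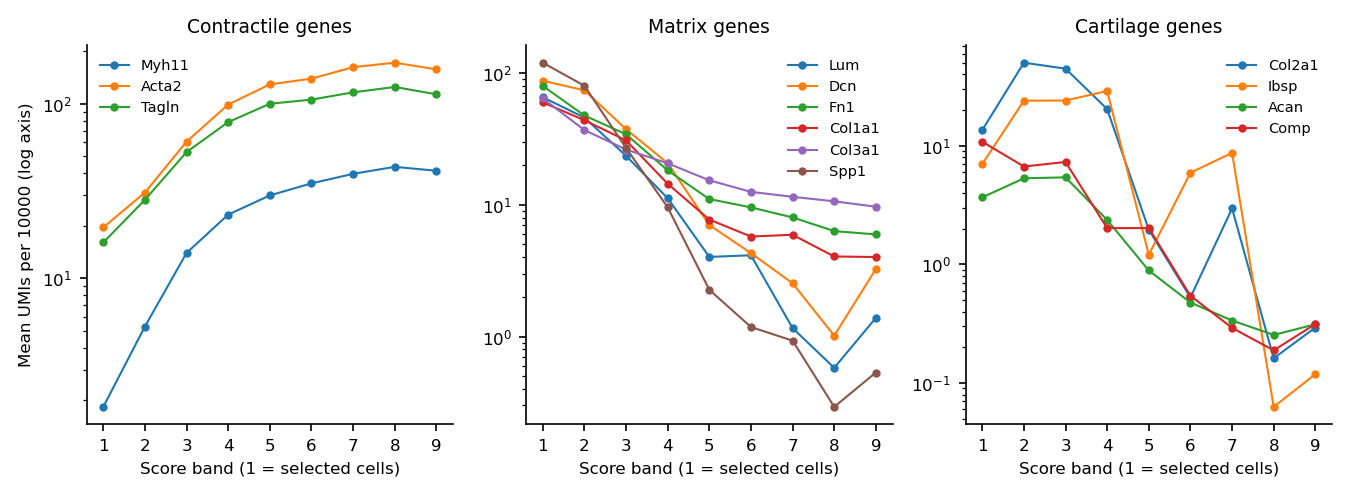
Mean UMIs per 10000 (log axis) of contractile, matrix and cartilage genes in 9 bands of plaque cells of both libraries ordered by falling score, where band 1 is the 260 selected cells and band 9 the 440 cells with a score of 0. *Myh11* is lowest in band 1 with 1.84 and *Lum* highest there with 65.4, while *Col2a1* is highest in band 2 with 50.2.

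Cartilage genes went both ways, with 6 of 16 above 0 and none of the 12 detected genes past 2-fold as reported. *Ibsp* was at −0.6, at −1.27 from summed UMIs and at −1.18 without the highest Scrublet scores, but turned to 0.1 by mean log values. The list had a median log2 ratio of −0.04, which was −0.31 from summed UMIs and turned to 0.08 by mean log values. For *ApoE-/-* the median was −0.1 and for *Trf2T188A/ApoE-/-* 0.21, and *Col2a1* had ratios of −0.69 and 0.74. The sum of the list was 31 and 43.7 UMIs per 10000 in selected *ApoE-/-* and *Trf2T188A/ApoE-/-* cells and 43.8 and 26.7 in other cells, with *Col2a1* the most abundant gene. *Sox9*, the transcription factor of chondrocytes, had means of 1.44 and 2.11 in selected cells against 1.03 and 1.38 in other cells (0.35, 0.29 to 0.41). *Acan*, the proteoglycan aggrecan, had 3.7 and 3.64 against 1.78 and 2 (0.71, 0.66 to 0.76). Of the 260 cells with the highest cartilage score 71 were selected cells, 27.3% of each set (22 to 33.2%), where selected cells are 10.7% of all plaque cells. Of the 260 cells with the highest complement and acute-phase score 73 were selected cells, 28.1% of each (22.7 to 34%). None of the 260 cells with the highest contractile score was selected (0 of 260, 0 to 1.41%), and 130 selected cells were in none of these ranges.

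The selected cells in the cartilage range, in the complement range and in neither differed in their levels, as their choice by gene scores leads to, and the cells of the first 2 sets overlap. Over the 71 selected cells in the cartilage range (39 *ApoE-/-* and 32 *Trf2T188A/ApoE-/-* cells) the median of *Acan* was 8.52, and over the 130 cells in no other range (67 and 63 cells) it was 0.263. *Ecrg4*, which was not in a score, had medians of 45.2 and 0.223, and *Spp1* medians of 43.5 and 3.27. The cells in the cartilage range were thus the ones rich in *Ecrg4* and *Spp1*. *Fbln2* and *Vcam1* went the other way, with medians of 0.408 and 3.53 in the cartilage range and 4.01 and 12 in the 130 cells. In the 73 cells of the complement range (40 and 33 cells) the median of *Lcn2* was 22.7, against 0.382 in the 130 cells, that of *Prg4* 11.7 against 0.566, and that of *Thbs1* 1.21 against 4.64. The 130 cells were the ones with the highest medians of *Timp1* (13.4) and *Fbln2* among the 3 sets. By mean, *Timp1* was highest in the cells of the complement range, with 32.9 against 24.7 in the 130 cells. *Acta2* was low in each set, with medians of 2.04 in the cartilage range, 11 in the complement range and 12 in the 130 cells, against 218 in the contractile cells. *Dcn* was present in each, with medians of 109, 78.6 and 43.5. High levels of such matrix genes were not particular to the selected cells. Over all 260 cells of the cartilage range and all 260 of the complement range, median *Dcn* was 88.3 and 47, against 66.2 in selected cells. Median *Lum* was 35.7 and 50.6 against 50.5, and median *Fn1* 66.4 and 14.6 against 63.9. In the same order, median *Spp1* was 42 and 1.48 against 12.2, and median *Ecrg4* 34.7 and 1.24 against 1.47. Median *Tnfrsf11b* was 5.89 and 0.881 against 4.56, and median *Vcam1* 2.11 and 11.7 against 9.53. The score gene *Prg4* was detected in 71.5% and 72.7% of the cells against 69.6%, with means of 13.6 and 11.6 against 17.2.

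**Figure D3:**
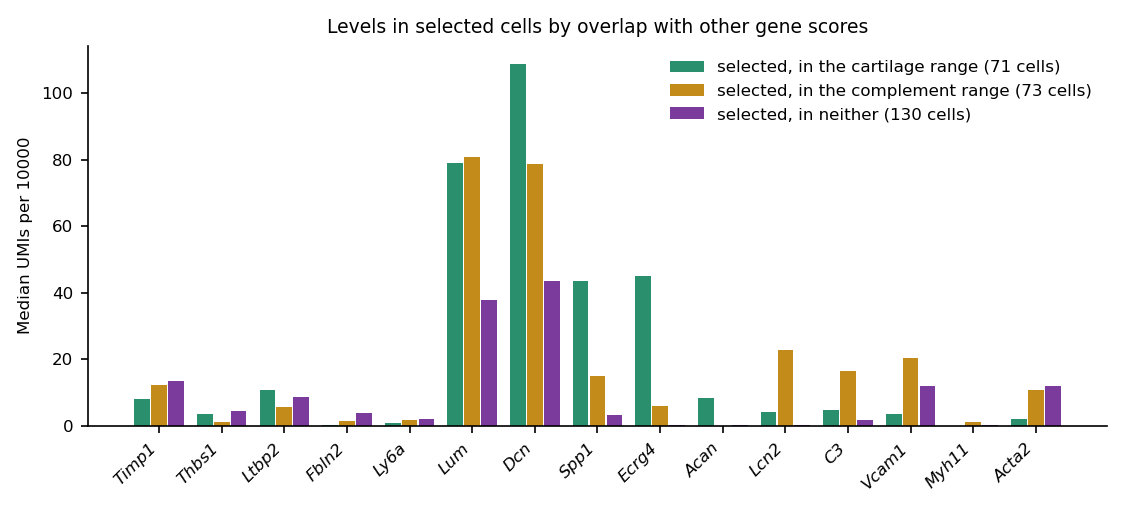
Median UMIs per 10000 of 15 genes in selected plaque cells of both libraries that are also among the 260 highest by cartilage score (71 cells), by complement and acute-phase score (73 cells), or in neither (130 cells). *Dcn* and *Lum* are present in each set, *Ecrg4* is highest in the cartilage range with 45.2 and *Lcn2* in the complement range with 22.7.

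Outside the score, the 10 genes with the highest Spearman correlation with the score over the 2431 plaque cells were *Lum* (0.66), *Mmp2* (0.62), *Vcam1* (0.62), *Dcn* (0.61), *Col1a2* (0.61), *Fn1* (0.6), *Col5a2* (0.6), *Col1a1* (0.6), *Runx1* (0.59) and *Tmem176a* (0.59). Of these 8 are also among the 20 highest ratios, and the 2 others are *Runx1* and *Tmem176a*, a membrane protein with a log2 ratio of 0.88 (0.82 to 0.94). For *Myh11* the correlation was −0.69 and *Synpo2*, an actin-binding protein of the contractile list, one of −0.65. The cells share their libraries and the depth noted above, and these values are descriptions.

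Of the 15 senescence genes 11 had ratios above 0, and the median log2 ratio was 0.1. None passed 2-fold, but with 1 added to the means a gene of low level can hardly do so, and this holds for the cell cycle and other lists of low level as well. *Cdkn2a* had a mean of 0.17 in selected and 0.0137 in other cells and a log2 ratio of 0.21. In bands 2 and 3 of the score the mean of *Cdkn2a* was 0.0695 and 0.0225, so it fell by degrees along the score. *Cdkn1a*, which codes for p21, had means of 2.36 and 1.52 in selected *ApoE-/-* and *Trf2T188A/ApoE-/-* cells against 1.36 and 1.47 in other cells (0.31, 0.26 to 0.36). *Cdkn2a*, the gene of p16, had a UMI in 18.8% of selected *ApoE-/-* cells (12.7 to 26.4%) and 23% of selected *Trf2T188A/ApoE-/-* cells (15.8 to 31.4%), against 2.35% of other plaque cells and 0 of 260 contractile cells. At 8000 UMIs per cell the shares were 6.62% (3.07 to 12.2%) and 9.91% (5.05 to 17%), against 0.914% of other cells and 0 of 258 contractile cells. The intervals of the genotypes overlap. Shares of *Cdkn2a*, *Mki67*, *Ly6c1*, *Ccl2* and *Pdgfra* in the cartilage and complement ranges are not given. Of the 14 cell cycle genes 12 were above 0, with a median of 0.08 and a summed level of 2.43 and 1.74 UMIs per 10000 in selected cells against 1.13 and 0.966 in other cells. *Mki67*, a marker of cycling cells, had a UMI in 16 of 138 selected *ApoE-/-* cells (11.6%, 6.77 to 18.1%) and 6 of 122 selected *Trf2T188A/ApoE-/-* cells (4.92%, 1.83 to 10.4%), against 1.38% of other plaque cells and 0 of 260 contractile cells. At 8000 UMIs the shares were 8.82% and 3.6% of selected cells and 0.66% of other cells.

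Genes of TGF-β signalling did not move as a group, with none of 20 past 2-fold, 8 above 0 and a median of −0.03 that turned to 0.01 by mean log values. *Tgfb1*, a ligand, had means of 1.91 and 1.79 in selected cells against 0.757 and 0.937 in other cells (0.65, 0.59 to 0.7). *Tgfbi*, a matrix protein induced by the pathway, had 0.81 (0.75 to 0.87), and *Tgfb1i1*, a coactivator of smooth muscle genes known as Hic-5, −0.66 (−0.72 to −0.6). The receptors *Tgfbr1* (−0.28) and *Tgfbr2* (−0.13) were slightly lower. Early-response genes known to be induced by enzymatic digestion were lower in selected cells, with 4 of 16 at least 2-fold lower and a median of −0.74, and their sum was 73 and 76.5 UMIs per 10000 against 132 and 150.3 in other cells. *Fos*, the most abundant of them, had means of 11.8 and 12.4 against 27 and 31.1 (−1.17, −1.2 to −1.15). The 13 mitochondrially encoded genes had ratios below 0, but none was 2-fold lower. Their median was −0.21 (−0.26 among *ApoE-/-* cells, −0.08 among *Trf2T188A/ApoE-/-* cells), with sums of 88 and 79.4 against 131 and 95.6. The part of digestion and cell quality in the results above was not tested.

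Marker lists of other cell types were examined in turn. The authors had kept only clusters with Confetti transcripts, so cells of other clusters were not analysed here. Of 12 macrophage genes 2 reached the detection limit and none was 2-fold higher, the sum was 0.301 and 0.228 UMIs per 10000 in selected *ApoE-/-* and *Trf2T188A/ApoE-/-* cells against 0.145 and 0.309 in other cells, and *Ptprc* and *Adgre1* were at 0. The most abundant gene was *Cd14*, with 0.184 and 0.113. Of 7 T cell genes none was detected in that share, the sums were 0.0329 and 0.0311 against 0.0108 and 0.0359, *Trac* was the most abundant and *Cd3e*, *Cd3d*, *Cd3g* and *Cd2* were at 0. Of 10 endothelial genes 2 were detected, the sums were 1.51 and 2.04 against 1.31 and 1.43 in other cells, *Erg* was the most abundant and *Kdr* was at 0. Of 12 fibroblast genes, of which *Col14a1* and *Mfap5* are also in matrix lists above, 9 were detected, 7 were above 0 and 4 below, none was 2-fold higher and the median was 0.12, with sums of 10.4 and 10.7 against 6.01 and 6.24. *Col14a1* was the most abundant, *Dpp4* was at 0, and *Cd34*, a surface marker of adventitial cells, had means of 1.22 and 0.99 against 0.275 and 0.262 (0.74, 0.68 to 0.79). *Dpt*, the matrix protein dermatopontin, had 1.33 and 1.23 against 0.429 and 0.24 (0.75, 0.7 to 0.8), while *Mfap5*, a microfibril protein, had 2.76 and 2.13 against 2.86 and 2.93 (−0.17, −0.21 to −0.12). *Pdgfra*, a receptor of fibroblasts, had a UMI in 60.9% and 73% of selected *ApoE-/-* and *Trf2T188A/ApoE-/-* cells, 21.6% and 27% of other plaque cells and 8.85% of contractile cells. At 8000 UMIs the shares were 20.6% (14.1 to 28.4%) and 45% (35.6 to 54.8%) of selected cells, 12.4% and 14.1% of other cells and 3.49% of contractile cells. The part of fibroblasts among the selected cells was not tested, beyond the share with a reporter UMI given above.

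Of 6 pericyte genes 5 were detected and 1, *Rgs5*, was 2-fold lower, with sums of 6.26 and 7.3 against 11.4 and 12.6, *Cspg4* the most abundant and *Higd1b* at 0. Of 9 cardiomyocyte genes 3 were detected, the sums were 0.771 and 0.753 against 2.82 and 2.48, *Ryr2* was the most abundant and was 2-fold lower (−1.0), and *Myl7*, *Nppa* and *Actc1* were at 0. Of 6 Schwann cell genes 1 was detected, *S100b* (0.67, 0.61 to 0.73), which makes up 0.858 of the sum of 0.901 over both libraries, and 3 genes were above and 3 below 0. The sums were 0.817 and 0.996 against 0.17 and 0.266 in other cells. Mesothelial genes, 6 of 8 listed, summed to 0.0214 and 0.062 against 0.101 and 0.0778, with *Krt18* the most abundant and *Msln*, *Upk3b*, *Wt1* and *Krt8* at 0. Of 7 erythroid and adipocyte genes *Hba-a2* had 1 UMI in the selected cells and 5 were at 0, among them *Adipoq* and *Hbb-bs*.

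The comparison of genotypes asks whether the selected cells differ when smooth muscle cells carry the mutant TRF2. The selected cells numbered 138 among 1502 in *ApoE-/-* (9.19%, 7.77 to 10.8%) and 122 among 929 in *Trf2T188A/ApoE-/-* (13.1%, 11 to 15.5%). The share was higher in the *Trf2T188A/ApoE-/-* library, and whether the genotypes differ was not tested. Among cells with a reporter UMI the shares were 8.84% and 11.5%, and with the score as a mean of z-scores 9.59% and 12.5%. The score used both libraries at once, the authors accepted cells with fewer detected genes in the *Trf2T188A/ApoE-/-* library than in the *ApoE-/-* library, each genotype has 1 library, and a difference between genotypes cannot be told apart from one between the libraries or the animals behind them. For genotypes a gene was compared when 10% or more of the selected cells of 1 library held it. Of 11645 such genes 20 (0.172%) had a log2 ratio of *Trf2T188A/ApoE-/-* over *ApoE-/-* of at least 0.5, and 8 (0.0687%) had one of at most −0.5. With 0.1 added to the means in place of 1 the counts were 153 and 187, so that the balance turned, and with ranking within each library 19 genes were lower. The median of all genes compared was −0.01. In other plaque cells 11 of 10400 genes were at least 0.5 and 3 at most −0.5. The contractile list had a median genotype ratio of −0.15 in selected cells, with 13 of 15 genes below 0 and none past 0.5 in either direction, and the fibromyocyte list one of 0.12, with 7 of 10 above 0 and none past 0.5. These medians depend on the calculation, with −0.0421 and 0.0815 from summed UMIs, −0.04 for the contractile list with z-scores and 0.0255 for the fibromyocyte list with the score from thinned cells. In other plaque cells the medians were −0.13 and 0.15.

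*Mmp3* had the highest genotype ratio among the genes that reached the detection limit in selected cells. It codes for stromelysin 1, a protease of proteoglycans, fibronectin and other matrix proteins (chromosome 9, 7445822 to 7455975). Its mean was 1.2 UMIs per 10000 in selected *ApoE-/-* cells and 4.6 in selected *Trf2T188A/ApoE-/-* cells, a log2 ratio of 1.35 (1.25 to 1.45), against 0.581 and 0.585 in other cells. It was detected in 22.5% and 36.1% of selected cells, and 5 cells of each library held 77.2% and 72.4% of its UMIs. As a difference of mean log values, which weighs such cells less, its genotype ratio was 0.48. *Prg4* had means of 11.6 and 23.6 (0.97, 0.91 to 1.02) and a ratio in the same direction in other cells (0.72). *Spp1* had means of 83.5 and 161 (0.94, 0.91 to 0.96) and in other cells a ratio of 0.57. From summed UMIs, where cells with many UMIs weigh more, the ratios of *Prg4* and *Spp1* were 0.51 and 0.57. *Slc7a2*, a transporter of arginine and lysine, had means of 2.05 and 4.7 (0.9, 0.78 to 1.02) and was detected in 90.6% and 92.6% of selected cells. Its ratio from summed UMIs was 0.43, and that in other cells 0.12. *Grin2a* had means of 1.38 and 3.05 (0.77, 0.63 to 0.91), and *Crispld1*, a secreted protein, 3.28 and 6.15 (0.74, 0.62 to 0.86), with 0.44 and 0.19 from summed UMIs.

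Of the other genes among the 10 highest genotype ratios, *Ibsp*, *Eml6* and *Rgs5* rested on few cells. *Ibsp* had means of 4.53 and 9.81 in selected cells (0.97, 0.9 to 1.04), of which 5 cells of each library held 90.8% and 93%, and its ratio was 0.08 without the cells of the highest Scrublet scores. *Eml6*, a microtubule-associated protein, had 0.301 and 1.21 (0.77, 0.66 to 0.88), with 73.5% of its UMIs in 5 of the *Trf2T188A/ApoE-/-* cells and a difference of mean log values of 0.07. *Rgs5*, a regulator of G-protein signalling, had 0.728 and 1.92 (0.76, 0.66 to 0.85), with 66.7% and 69.7% in 5 cells of each library and 0.19 by mean log values. Such ratios describe a few cells more than the 260. *Gm23935*, a short annotated gene on chromosome 16, had 10.8 and 19.5 (0.79, 0.73 to 0.86), was detected in 97.8% and 98.4% of selected cells, and had 0.57 from summed UMIs and 0.58 by mean log values. *Saa3*, an acute-phase protein, had means of 0.0713 and 3.53 (2.08, 2.01 to 2.15), but 95.6% of its UMIs in the *Trf2T188A/ApoE-/-* cells lay in 5 cells. It had a UMI in 6.52% and 8.2% of the selected cells, short of the detection limit. Over both libraries the share was 7.31% (4.46 to 11.2%), close to the 7.28% of other plaque cells and against 5% of the contractile cells (2.69 to 8.4%), and at 8000 UMIs 4.86% (2.54 to 8.33%) against 3.4% and 1.16% (0.24 to 3.36%). The intervals of selected and contractile cells overlap at both depths.

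The 10 lowest genotype ratios belong to genes of different roles. *Timp3* had means of 37.4 in selected *ApoE-/-* cells and 22.9 in selected *Trf2T188A/ApoE-/-* cells (−0.68, −0.72 to −0.65) and 13.5 and 13.9 in other cells (0.04). *Timp1* had −0.37 (−0.41 to −0.33) and *Timp2* −0.14 (−0.2 to −0.08), and the 4 TIMP genes had a median of −0.25 with none above 0, and this median was −0.2 from summed UMIs and −0.21 by mean log values. *Timp1* took part in the choice of the cells, and the ratios of the score genes are given as a description. *Slurp1* had means of 2.67 and 1.4 (−0.61, −0.75 to −0.48), with 57.7% and 58.8% of its UMIs in 5 cells of each library, and −1.04 from summed UMIs. *Serpina3n*, an inhibitor of serine proteases, had 8.74 and 5.49 (−0.59, −0.66 to −0.51). *Tmsb4x* (chromosome X, 167207093 to 167209315), the actin monomer-binding protein thymosin β4, had 38.2 and 26 (−0.54, −0.57 to −0.5), and 97.6 and 86.5 in other cells. *Cryab*, a small heat shock protein, had 4.24 and 2.66 (−0.52, −0.61 to −0.43). *Nrtn*, the growth factor neurturin, had 0.858 and 0.27 (−0.55, −0.65 to −0.45), and *Pcdh9*, a protocadherin, 1.18 and 0.534 (−0.5, −0.6 to −0.4). *Clca3a2*, *2410006H16Rik* and *Uchl1*, a ubiquitin hydrolase, complete the 10 lowest with −0.51, −0.5 and −0.48.

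**Figure D4:**
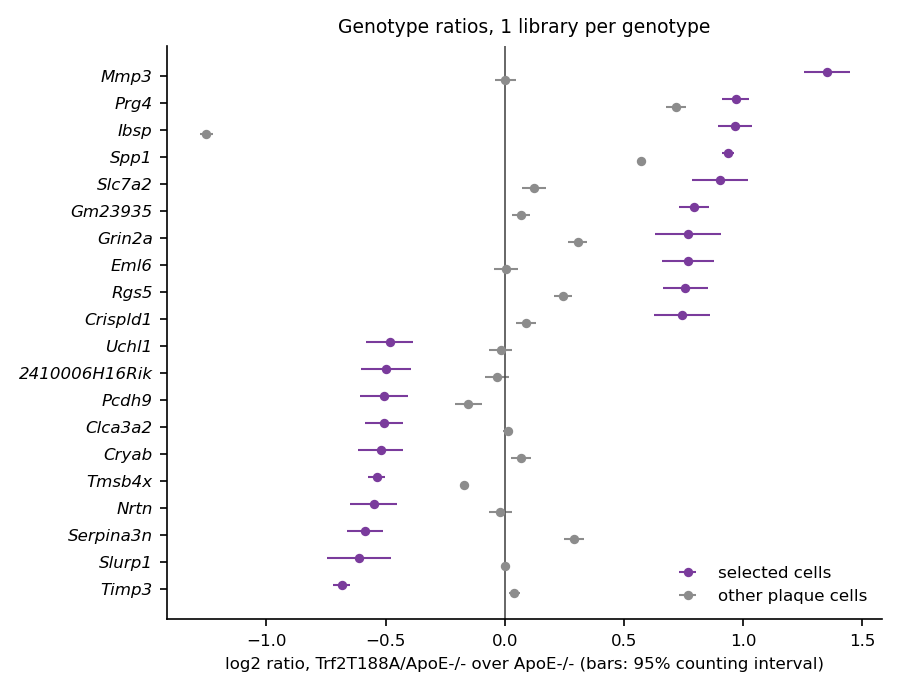
Log2 ratios of mean UMIs per 10000, *Trf2T188A/ApoE-/-* over *ApoE-/-*, of the 10 highest and 10 lowest genes in selected cells (purple) beside the same ratios in other plaque cells (grey), with 95% counting intervals as bars. There is 1 library per genotype, *Mmp3* is at 1.35 in selected and 0.00 in other cells, and *Timp3* at −0.68 and 0.04.

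Of the 10 highest genotype ratios 7 were also at least 0.5 from summed UMIs and 5 as a difference of mean log values, and all 10 kept their direction in both. Of the 10 lowest, 8 were at most −0.5 as reported, 3 from summed UMIs and 2 by mean log values, again without a change of direction. Matrix genes that were higher in selected cells than in other plaque cells differed in their genotype ratios. *Col1a1* had a genotype ratio of −0.06 (−0.09 to −0.03), *Col3a1* of 0.05 (0.03 to 0.08) and *Fn1* of −0.1 (−0.13 to −0.07). From summed UMIs they were −0.21, 0.03 and −0.3, by mean log values −0.02, 0.25 and −0.04, and with cells thinned *Col1a1* turned to 0.06 and *Fn1* was at −0.26. *Lum* was higher in the *Trf2T188A/ApoE-/-* library, with means of 54.9 and 77.3 (0.49, 0.46 to 0.52), and *Lum* in other cells had a ratio of 0.72. The collagen VI chains had ratios of −0.21 (−0.29 to −0.14) for *Col6a1*, −0.31 (−0.38 to −0.23) for *Col6a2* and −0.43 (−0.51 to −0.36) for *Col6a3*, where other cells had 0.02, 0.01 and −0.02. *Lcn2* had 0.39 (0.34 to 0.45) in selected cells and 1.09 in other cells, and *C3* had 0.07 (0.00 to 0.14) and 0.54. *Comp* had a genotype ratio of 0.68 (0.6 to 0.76) that turned to −0.12 from summed UMIs. Differences of these ratios between selected and other cells were not tested.

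Promoter windows of 300 bases around the gene start, from RefSeq on GRCm38.p6, are shown for the gene with the second lowest ratio in selected cells and for the gene with the highest genotype ratio within the detection limit, because each holds a motif of a factor known for its gene family. The CArG box, bound by serum response factor, was searched on both strands and was present in 535 of 32851 windows (1.63%). Of the 15 contractile genes 11 had a window and 1 of them, *Myl9*, held it, with its first base 161 bases before the start. The AP-1 motif TGANTCA, searched on both strands, was present in 2565 of 32851 windows (7.81%), in that of *Mmp3* with its first base 46 bases before the start, in 2 of the 11 contractile windows (*Cald1* and *Mylk*) and in none of the 4 score genes with a window. Capitals mark the CArG box in the window of *Myl9* (chr2:156775214-156775513, plus strand) and the AP-1 motif in that of *Mmp3* (chr9:7445572-7445871, plus strand). A match is a description of letters, not a site of binding.
Myl9: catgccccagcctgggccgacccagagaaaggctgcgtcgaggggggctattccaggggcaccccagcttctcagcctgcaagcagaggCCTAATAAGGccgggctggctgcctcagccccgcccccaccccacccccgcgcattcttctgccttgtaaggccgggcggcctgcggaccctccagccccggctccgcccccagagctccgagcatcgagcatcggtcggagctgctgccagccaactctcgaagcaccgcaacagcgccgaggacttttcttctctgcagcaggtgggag
Mmp3: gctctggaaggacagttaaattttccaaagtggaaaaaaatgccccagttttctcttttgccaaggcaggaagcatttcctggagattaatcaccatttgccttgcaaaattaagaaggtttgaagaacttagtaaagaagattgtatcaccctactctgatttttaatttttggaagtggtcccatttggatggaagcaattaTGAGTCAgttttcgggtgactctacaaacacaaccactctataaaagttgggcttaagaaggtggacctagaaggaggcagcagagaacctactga

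Cells of ligated carotid arteries took no part in the choice, and they were scored with the same genes to see whether the combination appears there. These libraries were made 28 days after ligation, from control mice and from Sm22a-Trf2T188A mice, with medians of 8631 and 11153 UMIs per cell. A score at or above that of the last selected plaque cell was reached by 75 of 4967 control cells (1.51%, 1.19 to 1.89%) and 93 of 5392 Trf2T188A cells (1.72%, 1.39 to 2.11%). With cells thinned to 5000 UMIs, which left out 325 and 154 cells, the shares were 1.31% and 1.57%. The libraries differ from the plaque libraries in disease, in the version of Cell Ranger used and in depth, so the shares stand beside those of plaques without a comparison. Not all score genes were present. *Prg4* had means of 0.00582 and 0.0217 UMIs per 10000 in the high-scoring control and Trf2T188A cells, and *Slurp1* 0.0361 and 0.0113, both close to 0. *Thbs1* had 18 and 18.7, *Timp1* 15 and 13.2, and *Fbln2* 5.93 and 5.46. *Ly6a* had 4.18 and 1.37 and was detected in 48% and 34.4% of these cells. Medians over these cells were 14.7 and 15.2 for *Thbs1* but 3.6 and 4.73 for *Timp1*. The high-scoring cells were taken by the score of the same genes. High levels of score genes in them are thus a description of that choice and not a finding. *Myh11* had means of 5.99 and 6 in the high-scoring cells and of 32.5 and 28.9 in the others, and *Dcn* 9.07 and 10.4 against 1.99 and 2.48. The endothelial gene *Pecam1* was detected in 33.3% and 26.9% of the high-scoring cells and 9.89% and 13.9% of the others, and the leukocyte gene *Ptprc* in 0% and 1.08%. The part of endothelial cells in these shares was not tested.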

How the data were processed

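RNA of single cells was measured in 4 libraries, 1 per genotype for plaques and for ligated carotid arteries. The signal values deposited by the authors are UMIs per gene, scaled so that each cell sums to 10000. The authors used Cell Ranger 7.0.0 for plaques and Cell Ranger 6.1.2 for ligated arteries, then Seurat in R, for which the deposited record and the methods of the paper give different versions. They removed cells with few genes or a high mitochondrial share, and in plaques kept clusters that express the Confetti reporter.

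UMIs were recovered from the values, since every value is, within 0.01, a whole multiple of the smallest of its cell. Ratios, shares and scores were computed with Python 3.11.15, numpy 2.4.6, scipy 1.17.1 and pandas 2.3.3, doublet scores with scanpy 1.11.5 and figures with matplotlib 3.10.9. The ratio and interval code was tested on simulated data. Gene positions are from GENCODE vM21, in which *Ecrg4* is not found under this name. Genes were named from the score, from the lists, and as the 20 highest and 10 lowest ratios of selected against other cells, the 10 highest and 10 lowest genotype ratios, and the 10 highest correlations with the score. Other genes named were chosen after their values were seen. The values of 1 gene of the protease list are not reported here. Selected cells and gene lists were chosen with earlier results of these data known.

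No test was made, because each genotype has 1 library and cells are not replicates. Number of mice per library, dissection, digestion, sequencing run and the authors' cell filters cannot be told apart from genotype. Genes detected in few cells, such as *Slurp1*, depend on depth.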

Additional observations from a re-analysis of the deposited data

Results flagged for a closer look

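For 4 named genes the genotype ratio was past 0.25 in one direction in selected cells and past 0.25 in the other direction in other plaque cells, with 1 library per genotype on each side, and the difference was not tested. Further named genes, such as *Timp3*, had opposite directions with a ratio nearer to 0 on one side. The log2 ratio of *Trf2T188A/ApoE-/-* over *ApoE-/-* was 0.69 in selected and −0.74 in other cells for *Col2a1*, and 0.97 and −1.25 for *Ibsp*. It was −0.59 and 0.29 for *Serpina3n*, and −0.38 and 0.29 for *Vcam1*. In selected cells *Vcam1* was at −0.14 from summed UMIs, nearer to 0 than 0.25, and *Serpina3n* at −0.38 without the cells of the highest Scrublet scores. In selected cells, 5 cells of each library held most UMIs of *Col2a1* and *Ibsp*, and the ratio of *Ibsp* there was 0.08 without those of high Scrublet scores and 0.09 by mean log values.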

How the results depend on the processing

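The shares, list medians and gene counts that answer a comparison make 12 results, with 128 alternative values. Of these 86 moved by less than their interval or by less than 1.5 times and 42 by more. No list median among these 12 results changed sign. Single genes and other lists can turn, and not all of them are named above. Genotype ratios in selected cells turned from 0.07 to −0.29 for *Tnfrsf11b* and from 0.08 to −0.14 for *Col8a1* from summed UMIs. That of *Myl9* turned from 0.12 to −0.11 by mean log values. Genotype medians of the latent TGF-β binding, matricellular and early-response lists turned in some calculations. Both shares of ligated carotid cells were among the 86. The cause of the movements was not tested. Below, list medians are log2 ratios.

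With 200 selected cells the shares were 7.06% of *ApoE-/-* and 10.1% of *Trf2T188A/ApoE-/-* cells, the fibromyocyte median was 1.78 and 17 genes were lower by genotype. With 320 cells the shares were 11.4% and 16%, the contractile median was −1.96 and 5 genes were lower by genotype. With the score as a mean of z-scores, the contractile median was −1.96 (genotype −0.0400) and the fibromyocyte median 1.88. With the score from thinned cells the fibromyocyte median was 1.86 (genotype 0.0255).

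Omitting each score gene in turn gave fibromyocyte medians from 1.74 to 1.94 and a contractile median of up to −1.9. Genotype medians then ran from −0.295 to −0.0159 for the contractile and from 0.0737 to 0.186 for the fibromyocyte list, and up to 15 genes were lower by genotype. Ranking within each library gave a *Trf2T188A/ApoE-/-* share of 10.7%, a fibromyocyte median of 1.85 and 19 genes lower by genotype. This ranking sets the shares of the libraries alike by construction (10.7% in *ApoE-/-*), so the higher *Trf2T188A/ApoE-/-* share is lost and depends on a common limit. With cells that have a reporter UMI, the fibromyocyte median was 1.95 (genotype 0.16) and 31 genes were higher by genotype.

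With 0.1 added to the means, in place of 1, the contractile median was −2.49 and the fibromyocyte median 1.97. The counts were then 294 genes higher and 417 lower in selected cells, and 153 higher and 187 lower by genotype, which turns the balance of 20 and 8. From summed UMIs the contractile median was −1.96 (genotype −0.0421) and the fibromyocyte median 1.6 (genotype 0.0815). By mean log values they were −1.91 and 1.83, and 10 genes were higher by genotype. With cells thinned and the same selected cells, the fibromyocyte median was 1.85 (genotype 0.0580).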
